A study of Homo sapiens with 12 samples.

Results

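The HOX genes are the 39 protein-coding homeobox genes of the HOXA, HOXB, HOXC and HOXD clusters, and 38 of them are described here, among 19970 protein-coding genes of the annotation. They were chosen by name and not by any measured value, and comprise 10 HOXA, 10 HOXB, 9 HOXC and 9 HOXD genes. The measurement was ChIP-seq of H3K4me2, a histone mark of active and poised promoters and enhancers, in U-937. This is an established human cell line of the monocytic lineage, labelled as AML. The cells were treated for 24 hours with the vehicle DMSO, with all-trans retinoic acid (ATRA) at 0.1 µM, with Corin at 0.1 µM, or with both drugs at 0.1 µM each. Each treatment had 2 H3K4me2 libraries and 1 input library, and the values analysed are 1 pooled peak list per treatment. U-937 is a single line, and nothing in the labels says whether the libraries of a treatment came from separate cultures. With no value per library, replicate error cannot be given, and comparisons between lists carry no p-value. Below, a value given with DMSO, with ATRA, with Corin or with both drugs is the value from that list of peaks, and the lists with Corin are the Corin and the ATRA+Corin list.

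HOX genes encode transcription factors that set positional identity in the embryo and are read in order along each cluster, from group 1 at one end to group 13 at the other. In blood, genes of the HOXA cluster such as HOXA9 are active in stem and progenitor cells and are silenced as myeloid cells mature, and their persistent activity is a hallmark of several leukaemias. U-937 carries a fusion of PICALM and MLLT10, a lesion known for high HOXA expression. HOX chromatin is kept open by the H3K4 methyltransferase KMT2A and closed by Polycomb complexes. Retinoic acid is a classical inducer of HOX genes in development. Corin is a synthetic molecule that inhibits the demethylase LSD1, which removes H3K4 methyl groups, together with the histone deacetylases of the CoREST complex.

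The lists held 65172 peaks with DMSO, 66385 with ATRA, 73997 with Corin and 83969 with both drugs. The lists with Corin were longer, and peaks covered 2.42% of the genome with DMSO, 2.76% with ATRA, 3.13% with Corin and 3.58% with both drugs. Library totals are not given by peak lists, and a place without a peak is one where no enrichment was called, not one shown to lack H3K4me2. The labelled myeloid identity was checked on start sites with DMSO. A peak lay over 11 of 12 myeloid marker genes, the exception being MPO, whose start site was 32901 bp from the nearest peak. Peaks lay over 0 of 4 erythroid, 0 of 4 epithelial and 1 of 3 T cell marker genes, the covered one being CD4.

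The 4 clusters differed widely in H3K4me2. In the DMSO list 53.2% of the HOXA cluster lay under peaks, compared with 33.3% of the HOXC cluster, 5.34% of the HOXD cluster and 2.36% of the HOXB cluster. The HOXA interval ran on chromosome 7 from 27100354 to 27200091 (GRCh38, 99.7 kb), from the end of HOXA2 to the start of HOXA13. The HOXB interval ran on chromosome 17 from 48528526 to 48728750, the HOXC interval on chromosome 12 from 53938831 to 54056030, and the HOXD interval on chromosome 2 from 176092721 to 176190907. HOXB thus lay near the share of the genome as a whole, HOXD somewhat above it, and HOXA and HOXC far above it. The same order, HOXA, HOXC, HOXD and HOXB, was found in each of the 4 lists.

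**Figure D1:**
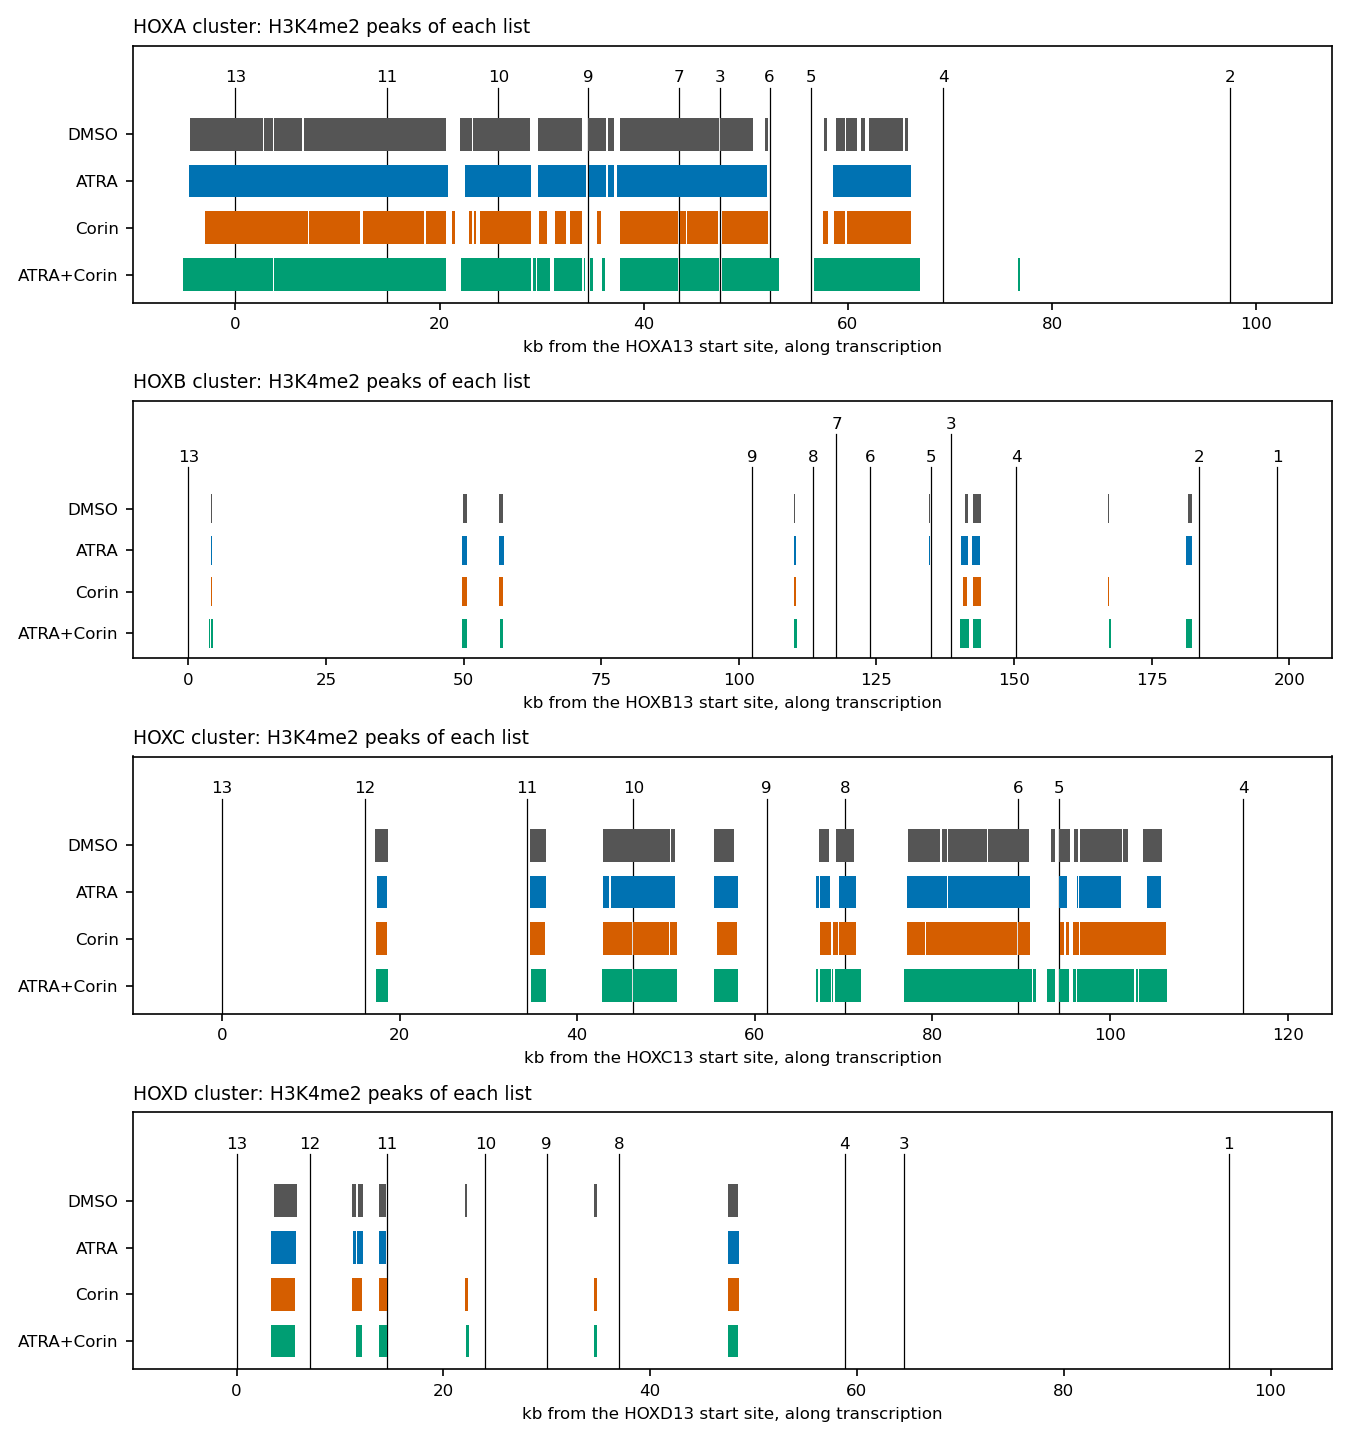
H3K4me2 peaks (blocks) of each of the 4 lists over the HOX clusters, drawn in kb along transcription from the start site of the group 13 gene; vertical lines mark the start sites of the genes, numbered by paralogue group. Nearly continuous blocks run from HOXA13 to HOXA6 in the DMSO and ATRA lists and are broken beside HOXA9 in both lists with Corin. HOXC is marked in stretches, while HOXB and HOXD hold a few short peaks.

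Covered length in the HOXA cluster was 53.02 kb with DMSO, 56.7 kb with ATRA, 50.9 kb with Corin and 57.8 kb with both drugs. Relative to DMSO the ratio was 1.07 with ATRA, 0.961 with Corin and 1.09 with both drugs. Over the whole genome the same ratios were 1.14, 1.29 and 1.48, above those of HOXA. The position of HOXA relative to DMSO depended on its bounds and on the peaks kept. With 10 kb added on either side, HOXA held 60153 bp with DMSO, 60719 bp with Corin and 70157 bp with both drugs. With only the 65172 strongest peaks of each list, it held 53018 bp, 49766 bp and 52567 bp. In HOXC, the covered length was 38.99 kb with DMSO, 38.1 kb with ATRA, 41.7 kb with Corin and 45.5 kb with both drugs, ratios of 0.977, 1.07 and 1.17. Both clusters therefore lay below the genome's ratio with each drug treatment. In HOXD the lengths were 5.25 kb, 4.98 kb, 5.86 kb and 5.31 kb in the order DMSO, ATRA, Corin and ATRA+Corin. HOXB held 4.73 kb with DMSO, 6.26 kb with ATRA, 4.61 kb with Corin and 7.16 kb with both drugs. Its ratios to DMSO were 1.32 for ATRA and 1.52 for ATRA+Corin, the only ones among the HOX clusters above those of the genome, and 0.976 for Corin. These HOXB lengths are small, and peaks between HOXB9 and HOXB13 contribute to them. From HOXB1 to HOXB9 alone, 3036 bp lay under DMSO peaks, 4451 bp under ATRA peaks, 2727 bp under Corin peaks and 4879 bp under ATRA+Corin peaks.

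**Figure D2:**
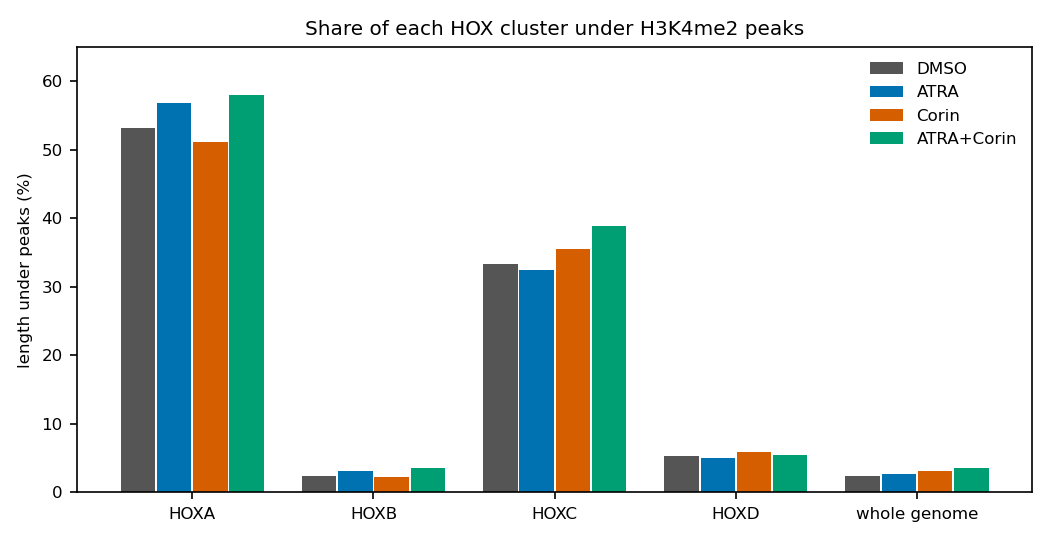
Share of the length of each HOX cluster, and of the whole genome, that lay under H3K4me2 peaks (y axis, percent) in each of the 4 lists (bars); there are no error bars because each treatment has 1 list. HOXA lies between 51.1% and 57.9% and HOXC between 32.5% and 38.8%, while HOXB and HOXD stay below 6%.

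Positions were also largely shared. The length under peaks in both lists over the length under peaks in either, which is 1 for identical lists, was 0.902 for ATRA and DMSO in the HOXA cluster, 0.829 for Corin and DMSO, and 0.826 for ATRA+Corin and DMSO. Over the genome these values were 0.743, 0.667 and 0.604. HOXC gave 0.870, 0.848 and 0.835, and HOXD gave 0.779, 0.813 and 0.761. HOXB was lowest, at 0.663 with ATRA, 0.664 with Corin and 0.549 with both drugs. With Corin, 5903 bp of the HOXA cluster were under a DMSO peak and not under a Corin peak, and 3827 bp the other way round. With ATRA+Corin, 7675 bp were added and 2902 bp were left out.

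The HOXA marks formed some of the longest H3K4me2 stretches in the genome of these cells. The widest ATRA peak of all 66385 lay over HOXA11 and HOXA13, from 27179265 to 27204630, and was 25366 bp wide. In the DMSO list the widest HOXA peak, over HOXA11 from 27179459 to 27193412, measured 13954 bp and ranked 4 of 65172. The widest HOXA peak of the Corin list was 10021 bp (rank 98) and that of the ATRA+Corin list 16828 bp (rank 18). The HOXA cluster was divided into 18 peaks with DMSO, 7 with ATRA, 19 with Corin and 14 with both drugs, so the ATRA peaks were the fewest and the widest. When peaks up to 1 kb apart were joined, the longest HOXA stretch was 28.7 kb with DMSO, 29.6 kb with ATRA, 26.5 kb with Corin and 25.8 kb with both drugs. In the DMSO and ATRA lists it ran over the start sites of HOXA3, HOXA7, HOXA9 and HOXA10, and in both lists with Corin over those of HOXA11 and HOXA13. Joined peaks over HOXA11 and HOXA13 also ran from 27179459 to 27204564 with DMSO and from 27179265 to 27204630 with ATRA. The first stretch was broken between the HOXA7 and HOXA9 start sites in both lists with Corin, from 27162384 to 27164249 in the Corin list. The longest such HOXC stretch, over HOXC6, was 13.6 kb, 13.8 kb, 13.8 kb and 14.9 kb in the same order of lists. HOXB and HOXD had no stretch above 3.84 kb.

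Fold enrichment over input and −log10 q, a measure of how unlikely the enrichment is under the input, are the authors' own values for a peak. They rank and filter peaks within a list, and where the values of several lists stand side by side they describe each list's own peak and measure no difference in H3K4me2. In the DMSO list the strongest HOXA peak lay from 27152714 to 27162456, over HOXA7, with a −log10 q of 211 at 47.2-fold enrichment. By −log10 p it was stronger than 98.2% of the DMSO peaks. In the ATRA list the strongest HOXA peak, from 27147996 to 27162757, had a −log10 q of 322 at 61.9-fold enrichment. In the lists with Corin the strongest HOXA peak ended beside HOXA3, with a −log10 q of 109.7 at 17.8-fold enrichment for Corin and of 167 at 31.3-fold enrichment for ATRA+Corin. Within their own lists those peaks exceeded 98.04% (ATRA), 95.4% (Corin) and 96.6% (both drugs) of all peaks. The strongest HOXC peak reached a −log10 q of 126, 176, 101.6 and 109.2 in the order DMSO, ATRA, Corin and ATRA+Corin.

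At the start sites themselves, HOX genes were covered less often than protein-coding genes as a whole. A peak lay over 8 of 38 start sites with DMSO (21.1%, 95% Wilson interval 11.1 to 36.3%), against 47.3% of all protein-coding genes. The count was 8 with ATRA (background 48.1%), 6 with Corin (15.8%, 7.44 to 30.4%, background 38.0%) and 7 with both drugs (18.4%, 9.22 to 33.4%, background 38.0%). The intervals cover counting error only, and neighbouring genes share peaks. A peak within 1 kb was found for 14 members with DMSO, 14 with ATRA, 13 with Corin and 14 with both drugs, or 36.8%, 36.8%, 34.2% and 36.8%. The background was 61.3%, 61.5%, 61.5% and 62.3%. All covered start sites belonged to HOXA and HOXC except 1 with Corin, that of HOXD11.

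Covered in every list were 5 members (background 30.8%), namely HOXA10, HOXA11, HOXA13, HOXC8 and HOXC10. HOXA10 acts in blood progenitors and HOXA11 and HOXA13 pattern the limb and the urogenital tract. The HOXA10 start site (27174320) lay under peaks with −log10 q of 159.97 with DMSO, 209.7 with ATRA, 70.1 with Corin and 85.6 with both drugs. Around it, 4958 of 5001 bp were covered with DMSO, all 5001 in the ATRA and ATRA+Corin lists and 4620 with Corin. For HOXA11 (27185232) the window was full in the DMSO, ATRA and ATRA+Corin lists and held 4823 bp with Corin. For HOXA13 (27200091) it was full in each list, and its peak also covered the start site of HOTTIP, a lncRNA gene at the HOXA13 end of the cluster. HOXC10 (53985146) had 5001 bp, 5001 bp, 4871 bp and 4864 bp in the order DMSO, ATRA, Corin and ATRA+Corin. On the side towards HOXC11, its start site lay 3361 bp inside the edge of the DMSO peak, but 58 bp inside the edge with Corin and 49 bp with both drugs. HOXC8 (54008985) had 2698 bp, 2717 bp, 3408 bp and 3925 bp in that order. These windows were saturated or nearly so for HOXA, and HOXC8 was the member of the 5 that held more cover in both lists with Corin.

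Under no peak in any list were 27 members (background 46.4%): HOXA2, HOXA4 and HOXA5, all 10 HOXB genes, 6 HOXC genes and 8 HOXD genes. No peak at all within 2.5 kb, in any list, was found for 16 of them (background 33.5%). These were HOXA2, HOXB1, HOXB4, HOXB6 to HOXB9, HOXB13, HOXC4, HOXC9, HOXC13, HOXD1, HOXD3, HOXD4, HOXD9 and HOXD13. HOXD1 was the most remote, with its nearest peak 47499 bp away with DMSO and between 47372 and 47491 bp away in the drug-treated lists. HOXA2 and HOXA4 sat in a stretch of 36569 bp without a DMSO peak. The clusters differed in their group 13 genes, of which 1 of 4 (HOXA13) was covered in each list. They were alike in their group 4 genes, of which 0 of 4 were covered in each list. Some genes have several start sites. The HOXC4 start site used here (54053835) was uncovered, while the gene itself begins at 54016931, under a peak in each list, and the HOXA3 start site used here (27152583) lies between those of HOXA6 and HOXA7.

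**Figure D3:**
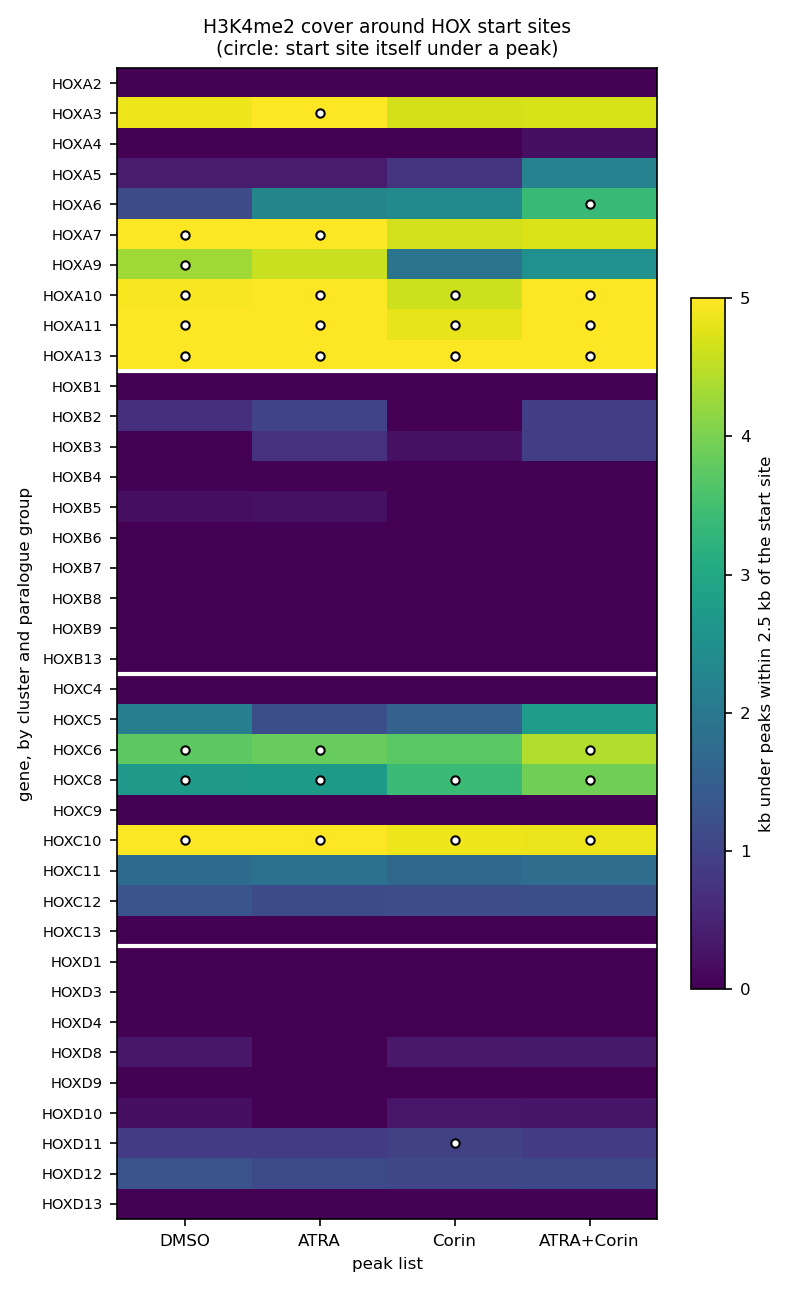
Length under H3K4me2 peaks within 2.5 kb of each of the 38 start sites (colour, 0 to 5 kb) in the 4 lists (columns); a circle marks a start site that itself lay under a peak. HOXA7 to HOXA13 and HOXC10 are nearly full, HOXA9 is lower in both lists with Corin, and most HOXB and HOXD rows are empty.

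Start-site cover differed between lists for 6 members, namely HOXA3, HOXA6, HOXA7, HOXA9, HOXC6 and HOXD11. Of these, 5 have a sequence in the RefSeq promoter table used here (GRCh38.p14, from 250 bases before to 50 bases after the start, 5′ to 3′ on the gene's strand). The sequences are shown because the peak edges fall inside them. In the first 3, capitals mark bases under a DMSO peak and under no Corin peak.
HOXA3: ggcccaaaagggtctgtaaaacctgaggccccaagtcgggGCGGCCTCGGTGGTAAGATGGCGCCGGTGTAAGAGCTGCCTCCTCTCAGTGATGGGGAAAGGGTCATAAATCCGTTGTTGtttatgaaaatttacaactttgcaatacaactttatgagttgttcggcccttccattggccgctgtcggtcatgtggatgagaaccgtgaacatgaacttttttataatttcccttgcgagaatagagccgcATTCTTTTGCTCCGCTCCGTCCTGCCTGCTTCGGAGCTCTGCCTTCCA
HOXA7: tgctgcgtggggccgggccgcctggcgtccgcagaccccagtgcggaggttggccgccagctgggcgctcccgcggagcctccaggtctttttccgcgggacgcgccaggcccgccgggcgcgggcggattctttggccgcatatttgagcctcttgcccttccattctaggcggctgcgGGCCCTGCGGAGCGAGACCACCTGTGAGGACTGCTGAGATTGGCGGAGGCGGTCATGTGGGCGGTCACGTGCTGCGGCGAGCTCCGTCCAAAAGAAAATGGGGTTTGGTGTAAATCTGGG
HOXA9: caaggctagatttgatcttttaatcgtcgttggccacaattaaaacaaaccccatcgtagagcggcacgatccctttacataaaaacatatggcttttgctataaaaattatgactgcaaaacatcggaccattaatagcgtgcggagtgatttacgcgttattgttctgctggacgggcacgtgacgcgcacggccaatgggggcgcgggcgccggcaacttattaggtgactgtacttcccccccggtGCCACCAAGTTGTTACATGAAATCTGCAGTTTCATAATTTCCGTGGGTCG
In HOXA6, capitals mark bases under an ATRA+Corin peak and under no DMSO peak.
HOXA6: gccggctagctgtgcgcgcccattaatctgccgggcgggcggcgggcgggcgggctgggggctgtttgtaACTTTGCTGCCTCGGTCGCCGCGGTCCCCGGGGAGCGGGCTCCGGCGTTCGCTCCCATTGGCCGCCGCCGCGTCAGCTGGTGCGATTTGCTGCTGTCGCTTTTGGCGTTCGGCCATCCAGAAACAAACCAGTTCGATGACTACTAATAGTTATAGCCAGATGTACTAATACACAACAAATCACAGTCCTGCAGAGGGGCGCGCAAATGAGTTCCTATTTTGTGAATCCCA
In HOXD11, capitals mark bases under a Corin peak and under no DMSO peak.
HOXD11: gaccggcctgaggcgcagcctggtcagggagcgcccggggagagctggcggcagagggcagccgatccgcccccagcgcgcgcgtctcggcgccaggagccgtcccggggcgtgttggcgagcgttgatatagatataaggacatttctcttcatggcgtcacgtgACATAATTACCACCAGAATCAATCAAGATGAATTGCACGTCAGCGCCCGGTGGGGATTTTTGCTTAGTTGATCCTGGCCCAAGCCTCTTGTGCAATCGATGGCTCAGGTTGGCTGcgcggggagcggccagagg
They lie at chr7:27152534-27152833 (HOXA3), chr7:27156626-27156925 (HOXA7), chr7:27165488-27165787 (HOXA9), chr7:27147725-27148024 (HOXA6), all on the minus strand, and at chr2:176107030-176107329 (HOXD11) on the plus strand. Capitals cover 128 of 300 bases for HOXA3, 120 for HOXA7, 50 for HOXA9, 230 for HOXA6 and 115 for HOXD11. The 5 stretches hold between 15 (HOXA3) and 31 (HOXA7) CG dinucleotides.

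Start sites covered with DMSO and not with Corin numbered 3 of 38, those of HOXA7, HOXA9 and HOXC6 (background 11.6%). For ATRA+Corin there were 2, HOXA7 and HOXA9 (background 11.9%), and for ATRA there was 1, HOXA9 (background 3.89%). In the opposite direction 1 member was newly covered in each list. It was HOXA3 with ATRA (background 4.69%), HOXD11 with Corin (background 2.31%) and HOXA6 with ATRA+Corin (background 2.68%). As shares of the 38 members, 7.89%, 5.26% and 2.63%, these counts lie near or below the backgrounds. All comparisons use the same DMSO list.

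HOXA7, a group 7 gene expressed in blood progenitors, lay 3961 bp and 5781 bp inside the edges of its DMSO peak. In the Corin list a gap of 164 bp, from 27156582 to 27156745, ran over the start site, with peaks on both sides. In the ATRA+Corin list the gap was 264 bp, from 27156500 to 27156763. The ATRA peak covered the start site without a gap. Within 2.5 kb, 5001 bp were covered in the DMSO and ATRA lists, 4657 bp with Corin and 4737 bp with both drugs. The gaps over the HOXA7 start site were thus narrow, and the Corin list had a further gap downstream of it.

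HOXA3, a group 3 gene of hindbrain and pharyngeal patterning, already had a gap of 132 bp over its start site with DMSO, with the peak edge 2 bp away. The gap measured 324 bp with Corin and 308 bp with both drugs, and no gap was present with ATRA. HOXC6, a group 6 gene of thoracic patterning, lay inside its DMSO, ATRA and ATRA+Corin peaks, while with Corin a gap of 131 bp ran over its start site (54028440). HOXC6 had 3733 bp covered within 2.5 kb with DMSO, 3844 bp with ATRA, 3718 bp with Corin and 4422 bp with both drugs. The windows of HOXC6 were therefore alike in the DMSO and Corin lists in covered length. HOXD11, a limb patterning gene, sat just past the end of a short peak: 85 bp past it with DMSO, 71 bp with ATRA and 21 bp with both drugs, and 30 bp inside it with Corin. Its covered length was 888 bp, 895 bp, 975 bp and 878 bp in the order DMSO, ATRA, Corin and ATRA+Corin.

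**Figure D4:**
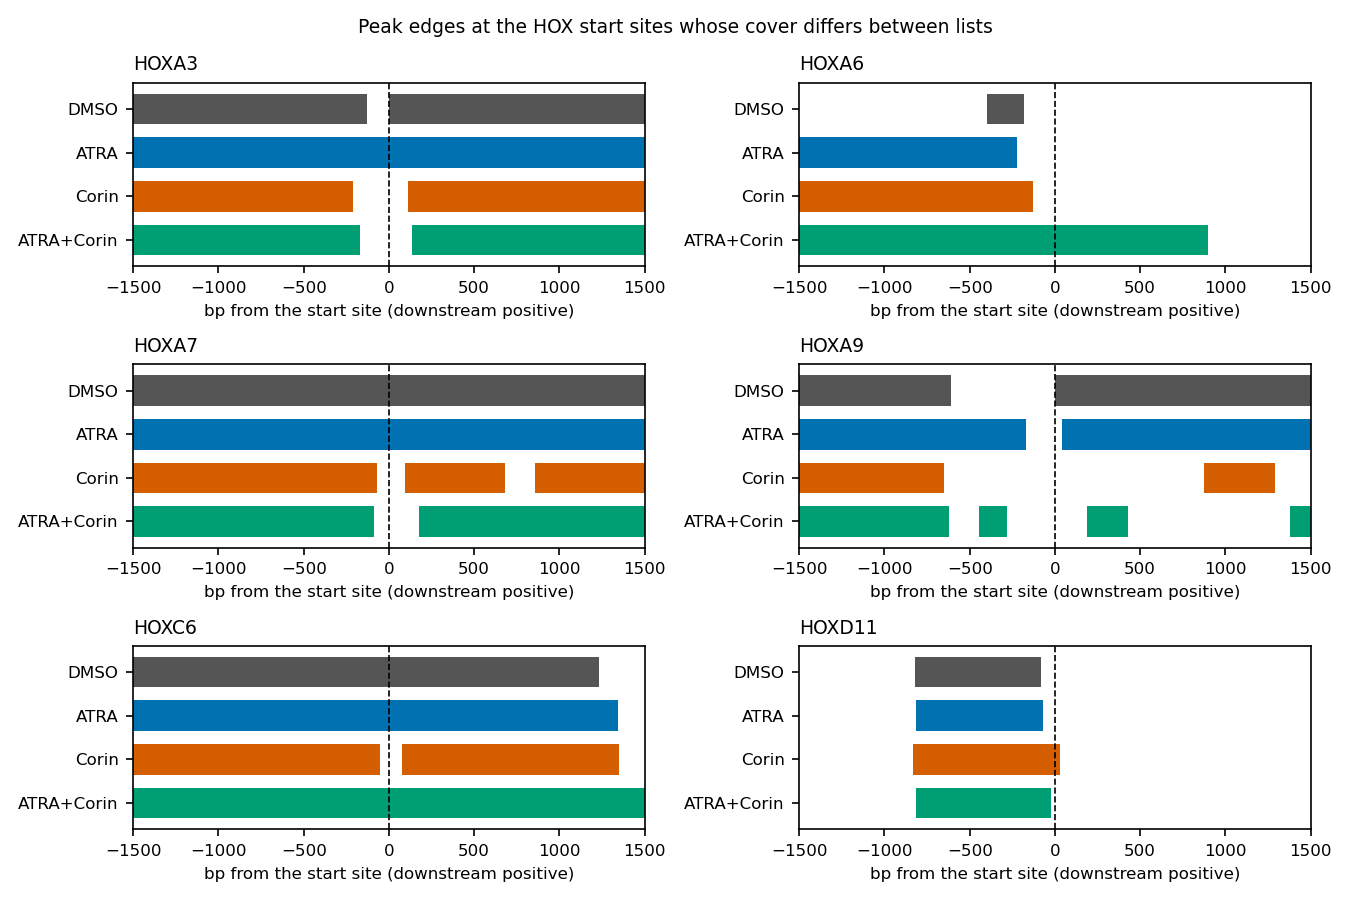
Peaks of the 4 lists (blocks) within 1500 bp of the 6 HOX start sites whose cover differed between lists; the dashed line is the start site and positive distances are downstream. Gaps of 164 bp and 264 bp open over the HOXA7 start site in the Corin and ATRA+Corin lists, and the HOXA9 start site touches the edge of its DMSO peak.

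HOXA9, the HOX gene best known as a driver of acute myeloid leukaemia, had the largest shortfall of covered bp against DMSO of any member. Within 2.5 kb of its start site (27165537), 4280 bp were covered with DMSO and 4588 bp with ATRA, but 1915 bp with Corin and 2533 bp with both drugs. Both lists without Corin lay above both lists with it, but the order of the lists with Corin turned with the processing. With only the 65172 strongest peaks of each list, the difference of HOXA9 from DMSO was -2778 bp with Corin and -4280 bp with both drugs, which left 0 bp covered with both drugs. With only peaks of a −log10 q of at least 5 it was -2177 bp and -3679 bp. The DMSO peak from 27163749 to 27165537 ended exactly at the start site, so its cover turned on the edge of 1 peak, and the ATRA peak stopped 44 bp before it. The gap around the start site was 214 bp with ATRA, 468 bp with both drugs and 1527 bp with Corin. The DMSO peak had a −log10 q of 22.7 at 10.5-fold enrichment. Over the same region, the strongest peak had a −log10 q of 14.9 with ATRA, 2.45 with Corin and 1.92 with both drugs. A neighbouring region from 27163024 to 27163641, also by HOXA9, held a DMSO peak (−log10 q 2.59) and an ATRA peak (5.84) and no peak in either list with Corin. Towards HOXA10, the region from 27165708 to 27170547 held 1 peak with DMSO (−log10 q 37.8) and 1 with ATRA (49.5). It held 3 peaks with Corin (at most 8.39) and 3 with both drugs (at most 4.29). Its covered share was 89.6%, 97.9%, 61.8% and 86.0% in the order DMSO, ATRA, Corin and ATRA+Corin. The start site of HOXA10-AS, an antisense lncRNA gene in this stretch, was covered in the DMSO and ATRA lists and lay 112 bp from a Corin peak and 52 bp from an ATRA+Corin peak.

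The other side of the HOXA block reached further with the combination. HOXA6 had 1144 bp covered within 2.5 kb with DMSO, 2279 bp with ATRA, 2373 bp with Corin and 3396 bp with both drugs. Each drug-treated list lay above DMSO, and the ATRA+Corin peak passed the start site (27147774) by 895 bp. HOXA5, which promotes myeloid over erythroid differentiation, had 405 bp, 398 bp, 767 bp and 2213 bp in the same order. The distance from its start site (27143681) to the nearest peak was 1258 bp with DMSO, 2103 bp with ATRA, 1183 bp with Corin and 288 bp with both drugs. The higher Corin value of HOXA5 rested on a weak peak with a −log10 q of 1.56. With only the 65172 strongest peaks of each list, HOXA5 had 130 bp fewer with Corin than with DMSO, whereas the difference for ATRA+Corin stayed at 1808 bp more. HOXA4 had 0 bp covered in the DMSO, ATRA and Corin lists and 199 bp with both drugs. Between HOXA5 and HOXA4, the region from 27133059 to 27143393 held 6 DMSO peaks that covered 60.1% of it, with a highest −log10 q of 59.1. The ATRA list had 1 peak there (73.9% covered, −log10 q 126.07), the Corin list 3 (76.7%, 73.05) and the ATRA+Corin list 1 (100%, 126.6).

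A length covered within 2.5 kb that was at least 1.5 times that of DMSO was found for 2 members with ATRA (HOXA6 and HOXB3, background 2.81%). With Corin there were 4 (HOXA5, HOXA6, HOXB3 and HOXD10, background 5.55%), and with ATRA+Corin 4 (HOXA4, HOXA5, HOXA6 and HOXB3, background 8.96%). A length at least 1.5 times smaller was found for 3 members with ATRA (HOXC5, HOXD8 and HOXD10, background 1.15%). With Corin there were 3 (HOXA9, HOXB2 and HOXB5, background 1.34%), and with ATRA+Corin 2 (HOXA9 and HOXB5, background 0.921%). As shares of the 38 members the counts of larger cover are 5.26%, 10.5% and 10.5%. Those of smaller cover are 7.89%, 7.89% and 5.26%. Shares in both directions lie above their backgrounds, and each rests on 2 to 4 members. With only peaks of a −log10 q of at least 5, the differences from DMSO were -45 bp for HOXC5 with ATRA, 0 bp for HOXB2 with Corin, and 0 bp for HOXB5 with Corin and with both drugs, which ends those calls, as it does the larger cover of HOXB3 with Corin (0 bp). The median over the 38 members was 191 bp with DMSO, 108.5 bp with ATRA, 108.5 bp with Corin and 322.5 bp with both drugs. Over all protein-coding genes it was 1986 bp, 2107.5 bp, 2355 bp and 2450.5 bp. Within HOXA the medians were 4574.5 bp, 4794.5 bp, 3496.5 bp and 4044.5 bp. These medians of 10 partly full windows turn on HOXA9, whose window was smaller in the lists with Corin while those of HOXA5 and HOXA6 were larger, and the covered length of the whole cluster was larger with both drugs than with DMSO. The HOXC medians were 1754 bp, 1206 bp, 1563 bp and 1790 bp, and those of HOXB and HOXD were 0 in each list.

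**Figure D5:**
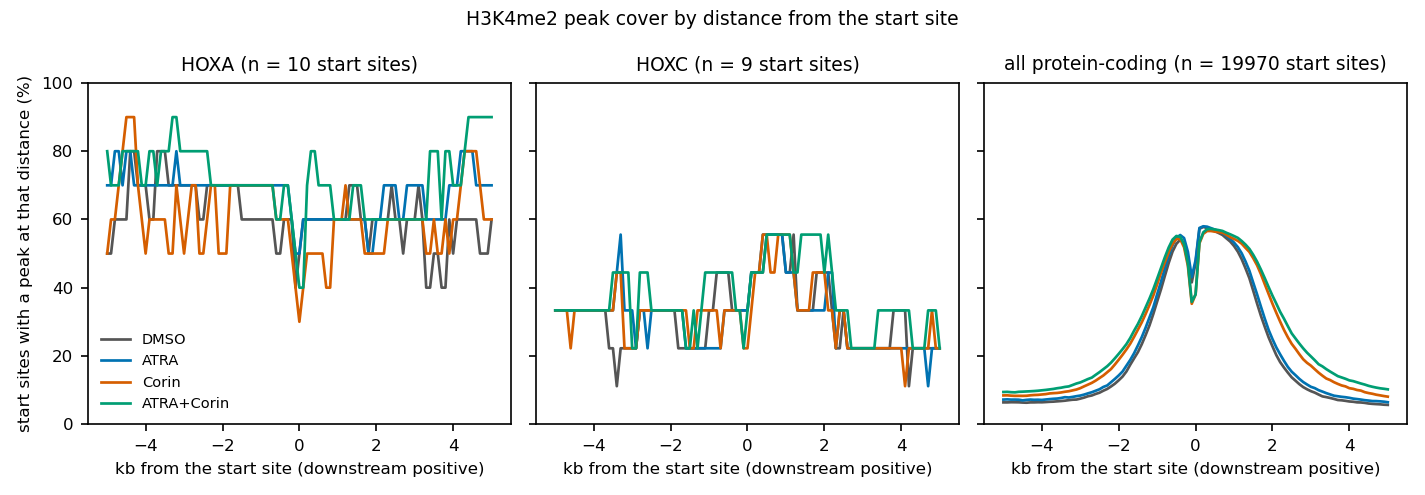
Share of start sites with a peak at each distance from the start site (x axis, kb, downstream positive; y axis, percent) for the 10 HOXA genes, the 9 HOXC genes and all 19970 protein-coding genes, 1 line per list. Cover of protein-coding genes peaks beside the start site and falls to between 5.63% and 10.2% at 5 kb downstream, while HOXA cover stays at 60% to 90% there.

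Cover around HOXA start sites did not fall away with distance as it did for other genes. Several HOXA start sites lie within 5 kb of the next, so a position 5 kb away can fall beside another member. The same peak then counts for several genes. At 5 kb downstream, a peak was present for 60% of the 10 HOXA genes with DMSO, 70% with ATRA, 60% with Corin and 90% with both drugs. Among all protein-coding genes the shares were 5.63%, 6.41%, 8.04% and 10.2%. At the start site itself, the HOXA shares were 50% for DMSO and ATRA, 30% for Corin and 40% for ATRA+Corin. At 1 kb before the start site they were 60% for DMSO and 70% for each other list. HOXA cover was thus lower at the start site than 1 kb before it in each of the 4 lists. With DMSO this was 5 against 6 of the 10 genes, and 4 were covered at 100 bp before the start site. Among all protein-coding genes cover at 1 kb before the start site was 35.9% with DMSO, 38.05% with ATRA, 40.97% with Corin and 42.6% with both drugs, below that at the start site without Corin and above it in the lists with Corin.

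In the HOXB cluster the cover consisted of short peaks, none of them over a start site. The strongest DMSO peak, from 48584815 to 48586149, lay inside HOXB3, a gene of hindbrain patterning and blood progenitors, with a −log10 q of 112 at 30.8-fold enrichment. The region had a −log10 q of 178 with ATRA, 41.6 with Corin and 73.7 with both drugs. A neighbouring region from 48586985 to 48588666 was covered over 27.5% with DMSO, 80.4% with ATRA, 43.3% with Corin and 100% with both drugs. It gave the HOXB3 start site (48590241) 0 bp of cover within 2.5 kb with DMSO, 704 bp with ATRA, 217 bp with Corin and 926 bp with both drugs. The lists with ATRA thus lay above those without it at HOXB3. HOXB2, a hindbrain gene, had 688 bp, 1002 bp, 0 bp and 927 bp in the order DMSO, ATRA, Corin and ATRA+Corin, all from a weak region (−log10 q of 2.92, 2.57 and 6.66 where present). HOXB5 had 182 bp with DMSO and 217 bp with ATRA, and 0 bp in both lists with Corin. A further merged region, from 48678099 to 48679100, held a peak of each list and lay 49650 bp from HOXB13, a gene of the posterior body axis and prostate. The −log10 q of its peaks was 98.2, 110.1, 45.6 and 97.4 in the order DMSO, ATRA, Corin and ATRA+Corin.

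In the HOXC cluster, the longest merged region ran from 54015628 to 54029996 over the HOXC6 start site and was covered over 91.6% with DMSO, 95.1% with ATRA, 94.3% with Corin and 100% with both drugs. Towards HOXC4, the region from 54034649 to 54045283 was covered over 74.1%, 60.7%, 96.8% and 96.6% in the same order, so that both lists with Corin lay above both lists without it. HOXC5 had 2162 bp covered within 2.5 kb with DMSO, 1206 bp with ATRA, 1563 bp with Corin and 2763 bp with both drugs. HOTAIR, a lncRNA gene that lies beside HOXC11, had its start site covered in each list, as did HOXC-AS3 beside HOXC10. The HOXC11 start site itself was 432 bp, 355 bp, 386 bp and 448 bp from the nearest peak.

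In the HOXD cluster, the DMSO peaks with the highest −log10 q stood 1212 bp from HOXD12 (86.3), inside HOXD3 (81.7), and at 2 places by HOXD11 (39.6 and 32.7). From HOXD4 to HOXD1 there was no peak in any list. Small DMSO peaks, 1742 bp from the start site of HOXD10 (−log10 q 8.42) and 2140 bp from that of HOXD8 (6.06), were found in both lists with Corin and were absent from the ATRA list. HOXD10 had 200 bp, 0 bp, 312 bp and 289 bp covered in the order DMSO, ATRA, Corin and ATRA+Corin, and HOXD8 had 324 bp, 0 bp, 342 bp and 356 bp.

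Peaks of all lists merged into 38 regions over the clusters, of which 25 (65.8%) held a peak of each list, against 51.2% of the 84577 regions of the genome. A region was called gained when it held a peak of the treated list and none of DMSO, and lost in the opposite case. ATRA gained 1 region (2.63%, background 11.7%) and lost 4 (10.5%, background 5.43%). Corin gained 1 (2.63%, background 17.3%) and lost 4 (10.5%, background 5.76%). ATRA+Corin gained 5 (13.2%, background 32.1%) and lost 2 (5.26%, background 4.18%). The gained shares lay below the background with each treatment. With only the 65172 strongest peaks of each list, 0 regions were gained with Corin and 0 with both drugs. The gained and lost regions named next had a −log10 q of at most 8.42. With ATRA, the strongest lost region was the peak near HOXD10, and the gained one lay 2936 bp from HOXC8, from 54005668 to 54006049, with a −log10 q of 6.22 with ATRA. The strongest region lost with ATRA in HOXC, beside HOXC5, had a −log10 q of 4.54 with DMSO and was also lost with Corin. In HOXB, the strongest region lost with Corin and with ATRA+Corin lay beside HOXB5 (4.30 with DMSO). In HOXA, Corin gained a region with a −log10 q of 2.08 and ATRA+Corin one of 3.89, both near HOXA10.

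The clusters also hold microRNA genes, chosen here because their hairpins lie inside the cluster intervals. Their mature sequences (RefSeq, GRCh38.p14) are shown with the seed, bases 2 to 8, in capitals, since miR-196a and miR-196b come from 3 different places with unequal H3K4me2 and share a seed.
hsa-miR-196b-5p: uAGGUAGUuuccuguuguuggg
hsa-miR-196a-5p: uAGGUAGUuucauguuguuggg
hsa-miR-10a-5p: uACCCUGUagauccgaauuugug
hsa-miR-615-3p: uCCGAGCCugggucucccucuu
The miR-196 family targets HOX transcripts. The MIR196B hairpin, between HOXA9 and HOXA10 on chromosome 7 from 27169480 to 27169563, lay fully under peaks (84 of 84 bp) in the DMSO, ATRA and ATRA+Corin lists and 30 bp from the nearest peak with Corin. MIR196A1 in HOXB was 13805 bp from the nearest DMSO peak, and MIR196A2 in HOXC was 1933 bp from it. MIR10A, inside HOXB3, was 4868 bp from the nearest DMSO peak and uncovered in each list, and MIR10B and MIR7704 in HOXD were uncovered in each list. MIR3185, the remaining HOXB hairpin, near HOXB13, had 40, 35, 60 and 68 of 68 bp covered in the order DMSO, ATRA, Corin and ATRA+Corin. MIR615, inside HOXC5, had 96 of 96 bp covered in the DMSO, Corin and ATRA+Corin lists and 24 bp with ATRA.

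HOX start sites are rich in CpG, the dinucleotide of promoter islands that attracts KMT2A and, where silent, Polycomb. In the 501 bp around the start site, the ratio of observed to expected CpG exceeded 0.6 for 33 of 38 members (86.8%), against 68.5% of protein-coding genes. Of these 33, 13 had a DMSO peak within 1 kb (39.4%), compared with 78.1% of the 13673 protein-coding genes above the same ratio. In the Corin list it was 12 of 33 (36.4%) against 77.8%. Members with no DMSO peak within 2.5 kb (18 genes) had a median ratio of 0.779, close to the 0.868 of the 20 members with one, while the medians over protein-coding genes were 0.420 and 0.837. Members with no DMSO peak within 2.5 kb thus mostly exceeded the ratio of 0.6, and protein-coding genes with no such peak mostly did not.

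Among the RefSeq promoters, 20 of 38 members had an entry and 18 an entry at the start site used here. Of these 18, 0 held a DR5 or a DR2 retinoic acid response element, a pair of retinoic acid receptor half-sites (AGGTCA and also GGGTCA, as well as AGTTCA and also GGTTCA, on either strand) spaced by 5 or by 2 bases. Such elements were found in 0.0883% and 0.0399% of all 35116 promoters, which is so rare that 0 of 18 does not set the HOX genes apart. The half-site AGGTCA alone was in 0 of 18, against 13.8% of all promoters. TATAAA was in 4 of 18, namely HOXA3, HOXA9, HOXA10 and HOXD13 (22.2% against 11.5%), and TGATNNAT, a site bound by HOX and PBX proteins, in 3, namely HOXA2, HOXB1 and HOXD11 (16.7% against 7.40%). These are matches of letters in a window of 300 bases on either strand.

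Partners and regulators of HOX genes were taken from fixed lists, and their counts are given without a test against the HOX genes. Of 9 cofactor genes of the MEIS, PBX and PKNOX families, which bind DNA together with HOX proteins, 7 start sites were covered with DMSO, 7 with ATRA, 5 with Corin and 4 with both drugs. Each of the 9 had a peak within 1 kb in each list. MEIS1, the partner of HOXA9 in leukaemia, had 3989 bp, 3555 bp, 3007 bp and 4181 bp covered within 2.5 kb in the order DMSO, ATRA, Corin and ATRA+Corin. Its start site was covered in the DMSO and ATRA lists and lay 113 bp and 137 bp from the nearest peak in the Corin and ATRA+Corin lists. Of 9 genes linked to HOX activation, which include KMT2A and its partners, 5, 5, 2 and 2 were covered in the same order. A peak within 1 kb was found for 6 of the 9 in each list. CDX1, CDX2 and CDX4 were covered in none of the lists. The KMT2A start site was covered with DMSO and with ATRA, and lay 113 bp from a Corin peak and 103 bp from an ATRA+Corin peak. Its covered length within 2.5 kb was 4778 bp, 4875 bp, 4566 bp and 4592 bp in the same order. Of 8 Polycomb genes 6, 6, 3 and 4 were covered, and 8, 8, 7 and 7 had a peak within 1 kb. The background for single start sites is that given above for each list. Of the 3 ParaHox genes GSX1, GSX2 and PDX1, relatives of the HOX genes outside the clusters, 0 were covered in any list. Of 17 lncRNA genes inside or beside the clusters 5, 6, 5 and 5 were covered, which included HOXA11-AS, HOTTIP, HOTAIR and HOXC-AS3 in each list. No share over all lncRNA genes is given here, so these counts cannot be called high or low. HOTAIRM1, at the HOXA2 end, lay between 17 and 44 bp from a peak in each list and had 2439 bp, 4112 bp, 4633 bp and 4784 bp covered within 2.5 kb.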

How the data were processed

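H3K4me2 was measured in 8 libraries and input in 4, grouped by their titles into 4 treatments. The authors processed reads with Trimmomatic, Bowtie2, Picard and MACS2 on hg38, per the submitters' processing notes; versions, settings and the peak threshold are not given in the sources used here. The deposited lists are 1 per treatment, called on H3K4me2 against input, and their names describe peaks reproducible by overlap. Each peak has the authors' fold enrichment over input (a ratio at the summit), −log10 p and −log10 q, and a deposited score derived from the −log10 p, which was not used.

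In each list 0 peaks ended past a GRCh38 chromosome, and the DMSO list covered 47.3% of protein-coding start sites and 4.60% of positions shifted from them by 1 Mb. Coordinates count from 1. Genes and canonical start sites came from GENCODE release 44. Of the 39 genes, 38 are described; 1 is not reported here. Members and lists were chosen with earlier results of these data known. The listed T cell marker TRBC1 was not analysed here. The B cell markers are not reported here. Named genes are those whose start-site cover differs between lists, the 3 per cluster with the highest DMSO −log10 q over the start site, and those with 1.5 times more or fewer covered bp within 2.5 kb; regions are the strongest gained and lost ones. The gene groups came from the same fixed rule. Intervals were computed with Python 3.11.15, numpy 2.4.6, pandas 2.3.3, scipy 1.17.1 and pysam 0.24.0, and the interval functions were tested on simulated data. No test between treatments was made, because each has 1 list. Alternatives were peaks with a −log10 q of at least 5, equal numbers of peaks, peaks merged within 1 kb, other start sites, windows and cluster bounds, and an overlap of 50%.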

Additional observations from a re-analysis of the deposited data

How the results depend on the processing

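Covered length of HOXA, HOXC and HOXD stayed within 1.5 times under each alternative, though HOXA moved across its DMSO value with the bounds and the peaks kept. The other clusters also had a list that crossed its DMSO value with only peaks of a −log10 q of at least 5. ATRA+Corin fell below DMSO in HOXD (4418 bp against 5248 bp). ATRA rose above DMSO in HOXC (38102 bp against 37438 bp), and Corin did so in HOXB (3505 bp against 3487 bp). Without HOXB13, HOXB held 3036 bp for DMSO and 2727 bp for Corin. A peak within 1 kb in place of cover gave 14, 14, 13 and 14 start sites (DMSO, ATRA, Corin, ATRA+Corin). It also gave 0 lost and 0 gained with ATRA, 1 lost and 0 gained with Corin, and 1 lost and 1 gained with ATRA+Corin. The lost gene was HOXB5 in both cases, and the gained one HOXA5. HOXA7, HOXA9 and HOXC6 had a peak within 1 kb in each list, so their losses were not found by this measure. Any transcript's start site gave 0 lost and 0 gained with ATRA. Peaks merged within 1 kb gave 1 lost and 0 gained with ATRA, 2 lost and 1 gained with Corin, and 0 lost and 1 gained with ATRA+Corin. Merging closes gaps of up to 1 kb by construction. Limiting peaks to a −log10 q of at least 5, or the lists to 65172 peaks each, moved no start-site count by over 1.5 times.

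Counts of gained and lost regions were small, and each of the 4 alternatives moved some of them. With strong peaks, 4 were gained and 2 lost with ATRA, 2 gained with Corin, and 3 gained and 4 lost with ATRA+Corin. With equal numbers of peaks, 0 were gained with Corin, and 0 gained and 4 lost with ATRA+Corin. Merged peaks gave 0 gained with ATRA, 0 gained and 2 lost with Corin, and 1 gained and 1 lost with ATRA+Corin. With 50% of a region covered, 3 were gained and 2 lost with ATRA, 2 gained with Corin and 9 gained with ATRA+Corin. The cause was not tested.

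Members with 1.5 times more cover numbered 4 with ATRA from strong peaks. In a window of 1 kb they numbered 1 with ATRA, 1 with Corin and 2 with ATRA+Corin, and in a window of 5 kb 7 with ATRA+Corin. Members with 1.5 times less cover numbered 1 with ATRA in a window of 1 kb, 1 with Corin from strong peaks and 1 with ATRA+Corin in a window of 5 kb. With equal numbers of peaks, the HOXA5 difference between Corin and DMSO was -130 bp, a reversed direction.

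No paired analysis was possible because each treatment has 1 pooled list, and a replicate was not left out for the same reason.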
